A study of Homo sapiens with 12 samples.

Results

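Aminoacyl-tRNA synthetase genes, the genes for the enzymes that load amino acids onto tRNA, were described in TIGK cells, keratinocytes of human gingiva that grow without limit because they carry the telomerase gene hTERT. The members were every protein-coding gene of the deposited count table whose symbol followed the naming pattern of the family (a letter for the amino acid followed by ARS, with EPRS, FARSA, FARSB and TARSL2 added). This gave 38 genes of the 58735 in the table, 21 for cytosolic and 17 for mitochondrial enzymes, and all 38 passed the filter on low counts in every comparison. GARS and KARS also give rise to the mitochondrial glycyl and lysyl enzymes and were counted as cytosolic. Symbols are those of the count table, where AARS, for example, is the gene now named AARS1.

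All 4 groups of 3 libraries were grown in a SILAC base medium with 48 mM glucose and pituitary extract. The control groups received no L-Arginine (Arg) for 24 or 48 h, and the Arg-treated groups received 500 µM Arg for 24 or 48 h. The libraries of a group were lettered A, B and C as replicates of a treatment condition. Whether these were separate cultures was not stated beyond this, so the p-values measure the spread between these libraries. The cells are 1 immortalized line, and poly(A) RNA was measured, not charged tRNA or protein.

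Each synthetase joins its amino acid to the matching tRNA, the step that fixes the meaning of the genetic code. Cytosolic enzymes serve the ribosomes of the cytoplasm, and a separate set made from nuclear genes serves the ribosomes inside mitochondria. Several cytosolic enzymes are held in a multisynthetase complex on the scaffold proteins AIMP1, AIMP2 and EEF1E1. ATF4, a transcription factor made when cells lack amino acids, is known to raise many cytosolic synthetase genes through a C/EBP-ATF response element in their promoters.

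The promoters are shown because the cytosolic members known as ATF4 targets and the other cytosolic members are compared below. RefSeq promoter windows of GRCh38.p14, from 250 bases before to 50 bases after each start site, were found for 30 of the 38 members, and the core TGATGNAA or its reverse complement TTNCATCA was searched on both strands. The core was found in 7 of the 10 known ATF4 targets with a window (70.0%), in 0 of 6 other cytosolic members, and in 1 of 14 mitochondrial members (7.14%). In all 27305 genes of the promoter table the share was 4.46%. The stretches below run 5′ to 3′ along the gene's strand, and the capitals mark the core.
AARS, chr16:70289675-70289704, minus strand: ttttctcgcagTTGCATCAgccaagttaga
CARS, chr11:3057407-3057436, minus strand: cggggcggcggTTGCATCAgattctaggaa
GARS, chr7:30594834-30594863, plus strand: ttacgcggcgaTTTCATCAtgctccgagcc
IARS, chr9:92293692-92293721, minus strand: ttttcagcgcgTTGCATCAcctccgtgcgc
MARS, chr12:57488053-57488082, plus strand: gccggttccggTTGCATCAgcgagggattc
NARS, chr18:57621804-57621833, minus strand: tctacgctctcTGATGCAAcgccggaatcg
TARS, chr5:33440956-33440985, plus strand: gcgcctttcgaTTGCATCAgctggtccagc
YARS2, chr12:32756076-32756105, minus strand: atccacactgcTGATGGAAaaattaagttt

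Counted from the RefSeq start site, with 1 as the first transcribed base, the core began at -187 in AARS, -33 in GARS, -13 in IARS, -4 in MARS, -2 in CARS, 3 in TARS and 15 in NARS. In these 7 genes the GENCODE v44 annotation placed it in an exon of at least 1 of the gene's own transcripts, in each case within an untranslated region and never in coding sequence. The core of YARS2, the mitochondrial tyrosyl enzyme, began at -197 and lay outside the gene. Among the known ATF4 targets, the windows of EPRS, SARS and WARS lacked these letters, and LARS, VARS and YARS had no window. A match is a description of the letters and not a measured binding site.

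Each library held between 16542243 and 19040964 counts, and the 38 members took 0.538% to 0.610% of them. Markers of keratinocytes (7 genes, among them KRT5 and KRT14) summed to 33687 to 45834 CPM, counts relative to library size after scaling by the trimmed mean of M values over the 12 libraries. KRT5 and KRT14 made up most of this sum, at means of 28466 and 9351 CPM, and the other markers had means of 150 to 819 CPM. The summed fibroblast markers (6 genes) were 30.2 to 54.4 CPM in the 24 h libraries and 72.7 to 103 CPM in the 48 h libraries, nearly all from DCN and COL1A1, while COL1A2 had 2 counts in all libraries together. The melanocyte, endothelial and leukocyte lists each summed to at most 3.06 CPM, with melanocyte markers at 1.03 to 1.91 CPM at 24 h and 1.84 to 3.06 CPM at 48 h. Library B of the 48 h control stood apart from the other 2 of its group, with chi-square values per degree of freedom of 20.9 and 23.9 against 3.66 between the other two, and with 1.55% of its counts on the mitochondrial chromosome against 0.906% and 0.707%. Counts of called genes that rest on it are given with and without it. At 24 h, library B of the control differed more from the others of its group (12.3 and 12.5) than these did from each other (6.54). Library A of the 24 h Arg-treated group did so too (12.4 and 10.9 against 5.41).

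**Figure D1:**
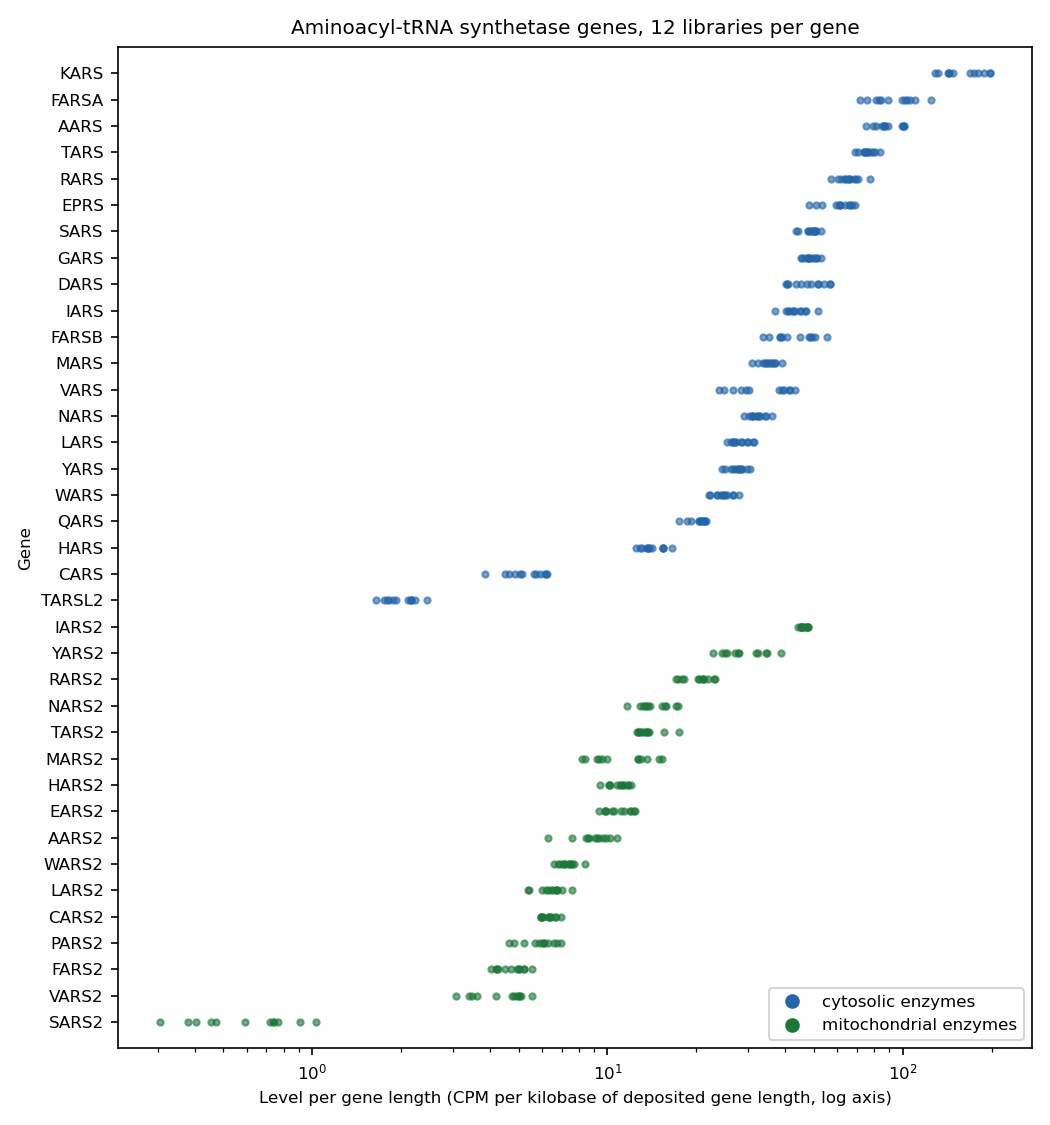
Level of the named synthetase genes in each of the 12 libraries, as CPM per kilobase of deposited gene length on a log axis, with cytosolic enzymes in blue and mitochondrial enzymes in green. KARS lay highest at a mean of 162 and SARS2 lowest at 0.626.

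Per kilobase of gene length, the cytosolic genes were for the most part the higher ones. KARS, which makes both lysyl enzymes, had the highest level at 162 ± 25.4 CPM per kilobase (SD over all 12 libraries). FARSA, the catalytic subunit of the phenylalanyl enzyme, stood at 94.3 ± 15.7 CPM per kilobase, beside 43.5 ± 6.89 for FARSB, its other subunit. The lowest cytosolic members were TARSL2, a second threonyl enzyme, at 2.01 ± 0.241 CPM per kilobase, and CARS, the cysteinyl enzyme, at 5.33 ± 0.766. Among mitochondrial members IARS2, the isoleucyl enzyme, was highest at 46.2 ± 1.22 CPM per kilobase, with a spread far under that of YARS2 (29.4 ± 4.95). SARS2, the mitochondrial seryl enzyme, was lowest at 0.626 ± 0.227 CPM per kilobase and rested on 19 to 62 counts per library. SARS2 overlaps MRPS12 on the opposite strand, a gene with 18168 counts in all against 440, so reads in the overlap could not be told apart where the counting used no strand.

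The 21 cytosolic genes summed to 4855 ± 100.7 CPM in the 24 h control, 5046 ± 174 in the 24 h Arg-treated group, 4653 ± 204 in the 48 h control and 4635 ± 234 in the 48 h Arg-treated group (SD, n = 3). The 17 mitochondrial genes summed to 909.8 ± 15.6, 954 ± 13.3, 870.5 ± 13.2 and 877 ± 10.4 CPM in the same order. The mitochondrial sums of both 48 h groups lay below those of both 24 h groups, from 855 to 886 CPM against 896 to 969 CPM. This order depended on the scaling in control. With library totals alone the mitochondrial sums were 868 to 903 CPM at 24 h and 874 to 899 CPM at 48 h in control, which overlapped, and 924 to 951 CPM and 891 to 899.7 CPM with Arg, which did not. In bulk RNA, fewer cells of a type and less RNA per cell cannot be told apart.

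The enzymes that charge arginine itself were RARS (ENSG00000113643, chr5:168486445-168519299, plus strand), a member of the multisynthetase complex, and RARS2 (ENSG00000146282, chr6:87514378-87590003, minus strand), its mitochondrial counterpart. RARS stood at 238, 223 and 242 CPM in the 24 h control libraries A, B and C, at 266, 224 and 218 CPM in the Arg-treated ones, at 227, 211 and 234 CPM in the 48 h control and at 195, 219 and 206 CPM in the 48 h Arg-treated group. These groups overlapped in every comparison, and no edgeR test of RARS passed, with log2 fold changes for Arg of 0.0077 ± 0.086 (standard error) at 24 h and -0.12 ± 0.067 at 48 h. The difference of RARS between 48 and 24 h in the Arg-treated groups was -0.19 ± 0.077 with an adjusted p of 0.0725 (edgeR). It passed only without library C of the 24 h Arg-treated group, at -0.25 with an adjusted p of 0.0400 (edgeR). RARS2 stood at 43.6, 46.4 and 53.1 CPM in the 24 h control, 58.8, 51.8 and 53.7 CPM in the 24 h Arg-treated group, 45.5, 54.0 and 44.3 CPM in the 48 h control and 51.7, 58.4 and 55.9 CPM in the 48 h Arg-treated group. Its means were higher with Arg at both times, by a log2 fold change of 0.20 ± 0.10 at 24 h (edgeR adjusted p = 0.237) and 0.20 ± 0.092 at 48 h (edgeR adjusted p = 0.367), and the libraries overlapped at both. The 48 h value passed without library B of the control, at 0.30 with an adjusted p of 0.0115 (edgeR), and in none of the other 5 fits that left out a library.

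From 24 to 48 h without Arg, 8 members fell and 3 rose at an adjusted p under 0.05 in edgeR's quasi-likelihood test (Benjamini-Hochberg over all 14449 genes tested). That is 21.1% of the members lower against 10% of all genes, and 7.89% higher against 9.9% of all genes. DESeq2 called the same 11 members. Without library B of the 48 h control the counts were 7 lower and 3 higher (of all genes, 8.60% and 7.81%). Without library A of the 24 h control they were 3 lower and 2 higher (of all genes, 2.74% and 2.85%), and without library C of that group 4 lower and 2 higher (3.36% and 3.34%). With library totals alone as the scaling they were 6 lower and 5 higher (of all genes, 1008 lower and 1845 higher, where the main scaling gave 1451 and 1431). VARS, KARS, MARS2, FARSA, YARS2, FARSB, EARS2 and DARS fell, and EPRS, CARS and AARS rose.

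VARS (ENSG00000204394, chr6:31777518-31795953, minus strand), the cytosolic valyl enzyme, stood at 250.3, 238 and 231 CPM in the 24 h control libraries and at 179, 145 and 173 CPM at 48 h. The groups did not overlap, and VARS fell by 0.53 ± 0.087 on the log2 scale, to 0.692 of its 24 h level (edgeR adjusted p = 0.00323). KARS (ENSG00000065427, chr16:75627474-75648643, minus strand) went from 806, 733 and 766 CPM to 585, 525 and 601 CPM, again with no overlap. Its log2 fold change was -0.43 ± 0.074 (edgeR adjusted p = 0.00376). KARS overlaps TERF2IP on the opposite strand, which had 12638 counts against 142854 for KARS.

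Both subunits of the phenylalanyl enzyme were lower at 48 h. FARSA, the catalytic subunit, had 304, 251 and 268 CPM at 24 h and 203, 175 and 218 CPM at 48 h, a log2 fold change of -0.46 ± 0.10 (edgeR adjusted p = 0.00768). FARSB had 162, 151 and 166 CPM and 131, 113 and 137 CPM, a log2 fold change of -0.33 ± 0.086 (edgeR adjusted p = 0.0209). In both genes all 3 libraries at 48 h lay below all 3 at 24 h. Without library A of the 24 h control neither passed (edgeR adjusted p = 0.0533 and 0.0878), and without library C FARSB did not pass (edgeR adjusted p = 0.0902).

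Among the mitochondrial members, MARS2, the methionyl enzyme (ENSG00000247626, chr2:197705369-197708387, plus strand), had the largest fall. It stood at 38.2, 38.4 and 46.3 CPM at 24 h and 29.0, 24.8 and 28.4 CPM at 48 h, with a log2 fold change of -0.58 ± 0.11 (edgeR adjusted p = 0.00572). YARS2 stood at 83.4, 68.6 and 74.3 CPM and 60.2, 52.8 and 58.1 CPM, with a log2 fold change of -0.40 ± 0.094 (edgeR adjusted p = 0.0132). Neither gene's groups overlapped, and VARS, KARS and MARS2 passed in all 6 fits that left out a library. YARS2 overlaps DNM1L on the opposite strand, which had 26103 counts against 13726, and its adjusted p was 0.0792 without library A and 0.0513 without library C of the 24 h control (edgeR). EARS2, the mitochondrial glutamyl enzyme, and DARS, the cytosolic aspartyl enzyme, made up the rest of the 8, with log2 fold changes of -0.30 and -0.24. EARS2 passed without library B of either group and in no other such fit, and DARS passed only without library B of the 24 h control.

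EPRS (ENSG00000136628, chr1:219968601-220046658, minus strand) encodes the joined glutamyl and prolyl enzyme of the multisynthetase complex. It stood at 263, 291 and 278 CPM in the 24 h control libraries and 348, 358 and 367 CPM in the 48 h ones, with no overlap, and rose by a log2 fold change of 0.37 ± 0.069 (edgeR adjusted p = 0.00527). CARS stood at 46.7, 45.3 and 38.6 CPM and 59.2, 57.4 and 62.0 CPM, with a log2 fold change of 0.45 ± 0.094 (edgeR adjusted p = 0.00777). Both passed in all 6 fits that left out a library. AARS, the alanyl enzyme, stood at 356, 382 and 337 CPM and 453, 402 and 451 CPM, a log2 fold change of 0.28 ± 0.077 (edgeR adjusted p = 0.0243), also with no overlap. AARS passed only without library B of the 24 h control or library B of the 48 h control, and its adjusted p was 0.0851 to 0.124 without any other library (edgeR). CARS and AARS carry the TTGCATCA form of the core shown above and EPRS does not. The other known ATF4 targets with the core, IARS, MARS, GARS, TARS and NARS, were not called. Their log2 fold changes were 0.067, 0.13, 0.054, -0.076 and -0.039. YARS2, which also carries the core, fell.

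**Figure D2:**
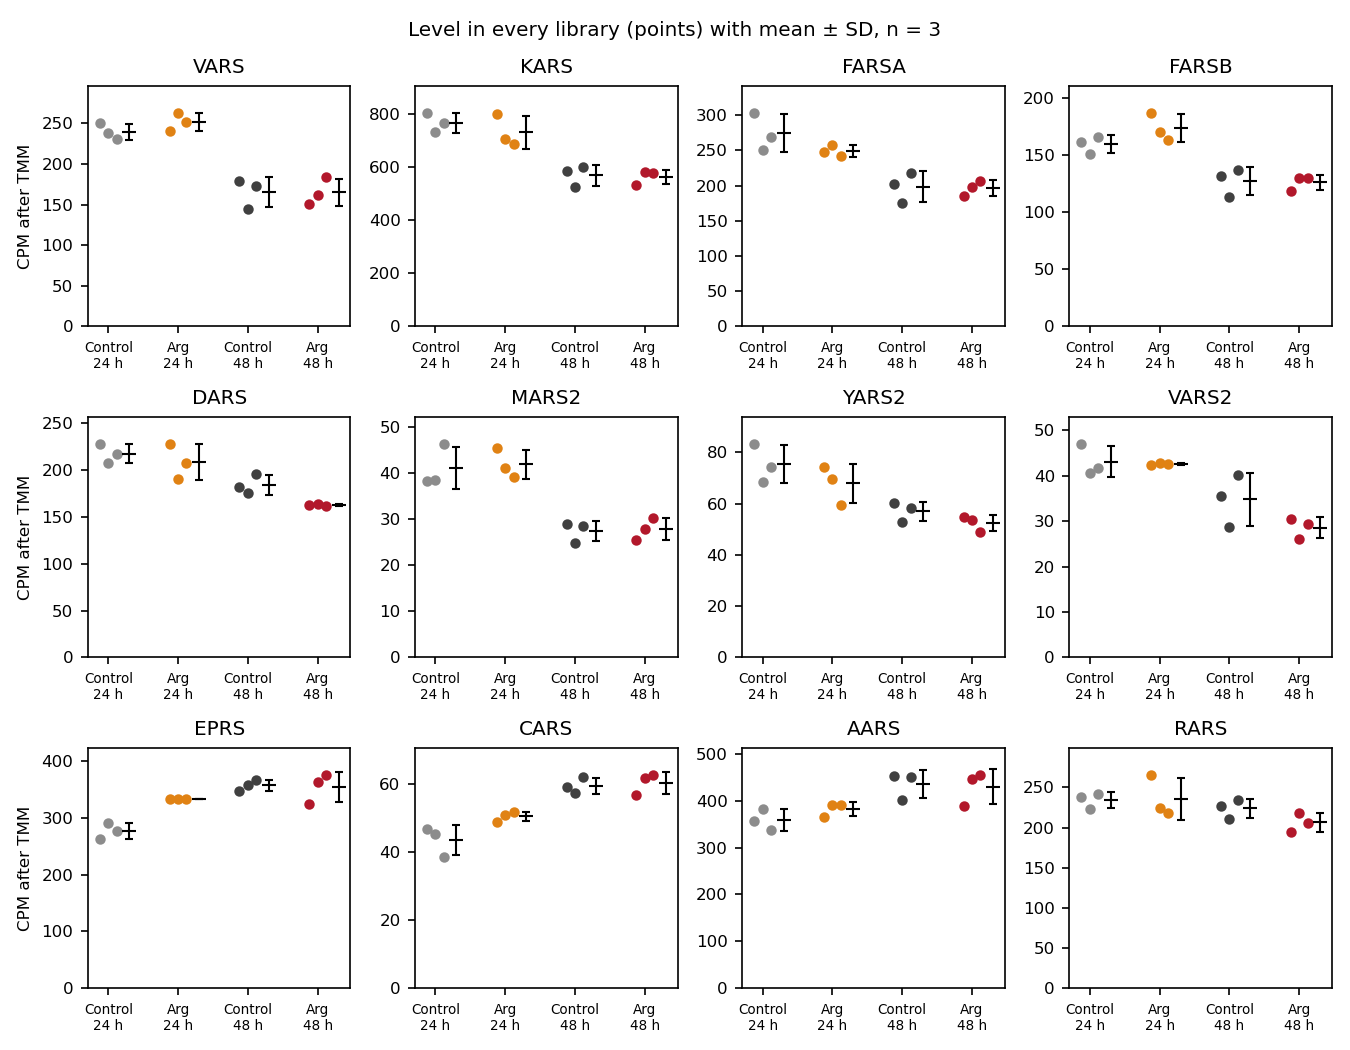
CPM of 12 synthetase genes in every library (points, in the order A, B, C) with the group mean ± SD (n = 3) beside them, on axes that start at 0. The 8 genes of the upper and middle panels have lower means at 48 h than at 24 h in both conditions, and EPRS and CARS have higher means at 48 h in control, 358 against 277 and 59.5 against 43.5.

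With Arg in the medium, 10 members fell and 1 rose from 24 to 48 h (edgeR, adjusted p under 0.05, 14398 genes tested). That is 26.3% of the members lower against 14% of all genes and 2.63% higher against 14.3% of all genes, and DESeq2 called the same 11. With library totals alone as the scaling 9 were lower and 3 higher (of all genes, 1453 lower and 2568 higher, where the main scaling gave 2012 and 2060). VARS stood at 241, 263 and 252 CPM at 24 h and 150.4, 162 and 184 CPM at 48 h, and fell by 0.61 ± 0.075 on the log2 scale (edgeR adjusted p = 6.72e-06). VARS2, the mitochondrial valyl enzyme, stood at 42.5, 42.9 and 42.5 CPM and 30.5, 26.0 and 29.3 CPM, a log2 fold change of -0.57 ± 0.091 (edgeR adjusted p = 1.02e-04). Neither gene's groups overlapped. In control the value of VARS2 was -0.31 ± 0.12 (edgeR adjusted p = 0.0981), also with no overlap. There it was called with no count filter, a replicate block or 1 model for all 12 libraries, and in no other setting that kept all libraries. Of the fits that left out a library, it passed in control only without library C of the 48 h control. Its difference of Arg effects between the times did not pass (edgeR adjusted p = 0.794).

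FARSB had 187, 170.4 and 164 CPM at 24 h and 118, 129.8 and 129.8 CPM at 48 h with Arg, with a log2 fold change of -0.46 ± 0.073 (edgeR adjusted p = 8.98e-05). FARSA had 248, 258 and 241 CPM and 185, 198 and 206 CPM, with a log2 fold change of -0.34 ± 0.067 (edgeR adjusted p = 7.50e-04). All 48 h libraries of both subunits lay below all 24 h libraries, as in control. MARS2 had 45.3, 41.0 and 39.2 CPM and 25.3, 27.9 and 30.1 CPM, a log2 fold change of -0.59 ± 0.10 (edgeR adjusted p = 1.26e-04). KARS had 803, 708 and 687 CPM and 535, 583 and 578 CPM, a log2 fold change of -0.37 ± 0.068 (edgeR adjusted p = 3.96e-04). These 4, VARS and VARS2 passed in all 6 fits that left out a library. DARS, YARS2, NARS2, the mitochondrial asparaginyl enzyme, and HARS, the histidyl enzyme, also fell, with log2 fold changes of -0.36, -0.37, -0.33 and -0.20. NARS2 did not pass without library A of the 48 h group. Of the fits that left out a library, HARS passed only in that without library A of the 24 h group. With all libraries kept, HARS was also not called with library totals alone, no count filter, a replicate block or 1 model for all 12 libraries. HARS and HARS2, its mitochondrial counterpart, run in opposite directions from RefSeq start sites 85 bases apart on chromosome 5, and the 2 genes overlap in the count table.

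CARS was the member that rose with Arg, from 48.9, 50.8 and 51.7 CPM at 24 h to 56.7, 61.7 and 62.8 CPM at 48 h, a log2 fold change of 0.26 ± 0.080 (edgeR adjusted p = 0.0206). Its groups did not overlap, and it did not pass without library B or library C of the 48 h Arg-treated group (edgeR adjusted p = 0.0850 and 0.0851). AARS passed beside it only without library A of the 48 h Arg-treated group. EPRS stood at 333, 333 and 334 CPM at 24 h and 325, 362 and 376 CPM at 48 h with Arg. Its groups overlapped, and the log2 fold change was 0.089 ± 0.066 (edgeR adjusted p = 0.346).

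**Figure D3:**
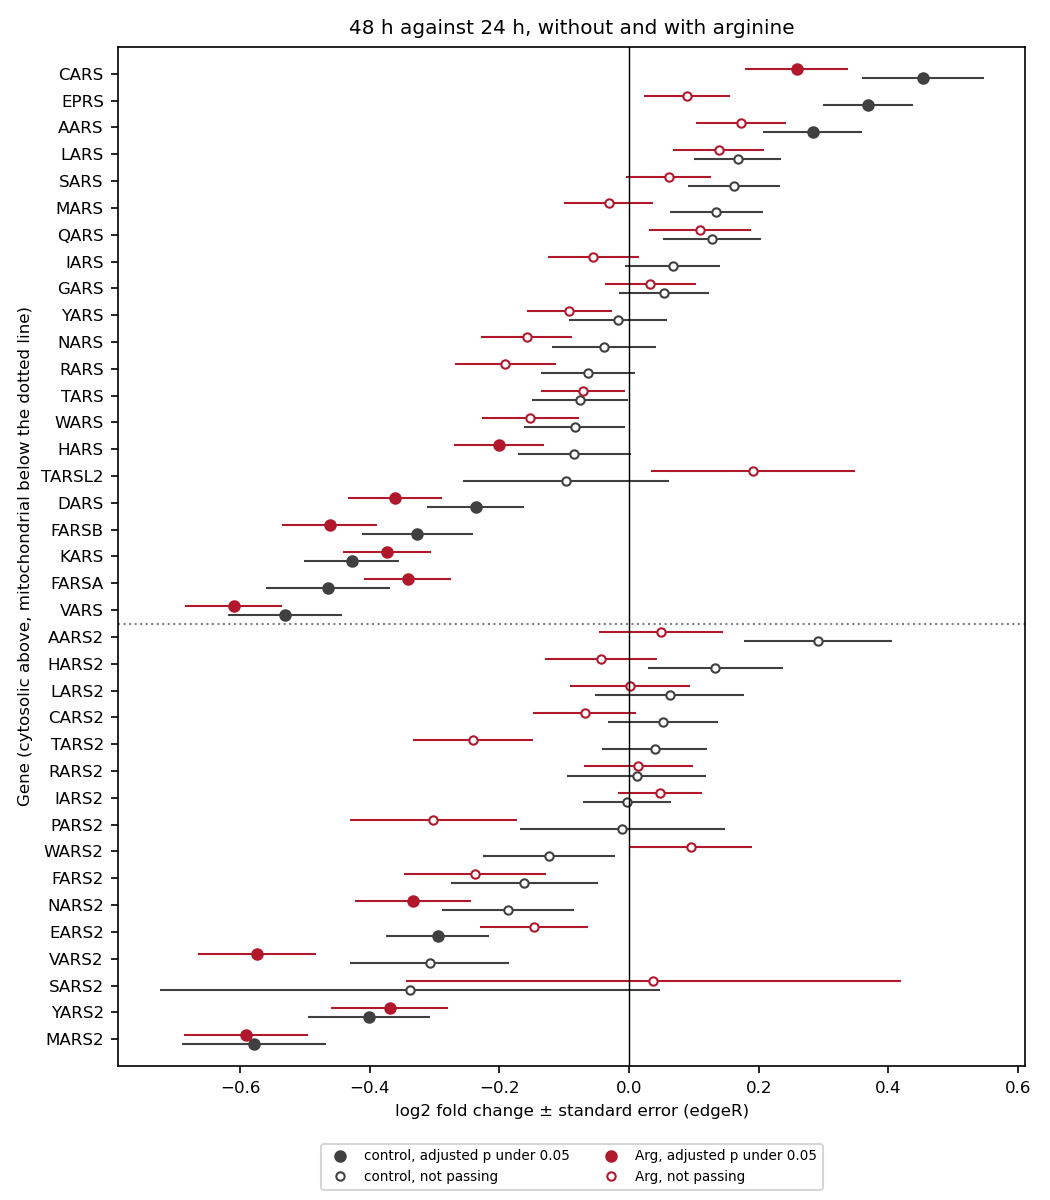
Log2 fold change ± standard error of 48 h against 24 h for the named synthetase genes, without Arg (gray) and with Arg (red), with filled points for an adjusted p under 0.05 in edgeR. VARS, KARS, FARSA, FARSB, DARS, MARS2 and YARS2 have filled points to the left of 0 in both conditions, and CARS has them to the right in both.

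The comparisons of 48 with 24 h without and with Arg share no library. Of the members that fell, 7 did so in both, which is 7 of 8 in control and 7 of 10 with Arg. Of the members that rose, 1 did so in both, 1 of 3 in control and 1 of 1 with Arg. DARS, 1 of the 7, was not called in control without library B of the 48 h control. Without library A of the 24 h control only VARS, KARS and MARS2 were called lower in control. How many of all genes were called in both was not computed, so these overlaps are not read as a trait of the members. Across the 38 members the log2 fold changes of the 2 comparisons had a Pearson r of 0.80 and a Spearman rho of 0.75, and 28 had the same sign. Across the 14057 genes tested in both the Pearson r was 0.68. These are descriptions across genes, which share their libraries and are not independent.

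The cytosolic members known as ATF4 targets and the other cytosolic members are given side by side, and the difference between the lists was not tested. From 24 to 48 h 9.9% of all genes rose and 10% fell in control, and 14.3% and 14% with Arg. Without Arg, 8 of the 13 known ATF4 targets had a positive log2 fold change from 24 to 48 h and 3 rose (EPRS, CARS and AARS), while 1 fell (VARS), with a median of 0.067. Of the 8 other cytosolic members, 1 had a positive value, 0 rose and 4 fell (KARS, FARSA, FARSB and DARS), with a median of -0.17, beside 0.012 for all genes. Without library A of the 24 h control 2 of the known targets rose and 1 fell and 1 of the others fell (KARS), without library C of that group 2 of the others fell, and without library B of the 48 h control 3 known targets rose and 1 fell and 3 of the others fell. With Arg, 1 of the 13 rose and 1 fell, with a median of -0.031 (0.025 with library totals alone as the scaling), and 5 of the 8 others fell, with a median of -0.27, beside 0.00092 for all genes. None of the 6 others with a promoter window held the core, and VARS had no window. Of the known targets that held it, only CARS and AARS were called in control and only CARS with Arg.

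By place in the cell, 3 cytosolic members rose and 5 fell in control (median -0.039 of 21), and 0 mitochondrial members rose and 3 fell (median -0.011 of 17, with 1 member higher and 4 lower at an unadjusted p under 0.05 and DESeq2 at the same 0). With library totals alone as the scaling, these medians were 0.021 and 0.050, and the median of all genes went from 0.012 to 0.072. Without library B of the 48 h control 3 cytosolic members rose and 4 fell (median 0.015) and 0 and 3 mitochondrial members (median -0.076). Without library A of the 24 h control these counts were 2 and 2 of the cytosolic and 0 and 1 of the mitochondrial members. With Arg these counts were 1 and 6 of the cytosolic members (median -0.071) and 0 and 4 of the mitochondrial members (median -0.068). The 8 enzymes of the multisynthetase complex had a median of 0.098 in control, with 1 called higher (EPRS) and 2 lower (KARS and DARS, and KARS alone without library B of the 48 h control), and of -0.043 with Arg (0.013 with library totals alone), with 0 and the same 2. The 13 free cytosolic enzymes had medians of -0.076 in control and -0.092 with Arg. The shares of all genes that rose and fell were 9.9% and 10% in control and 14.3% and 14% with Arg. The fibroblast markers moved with time in culture as given above, and their part in these differences was not tested.

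**Figure D4:**
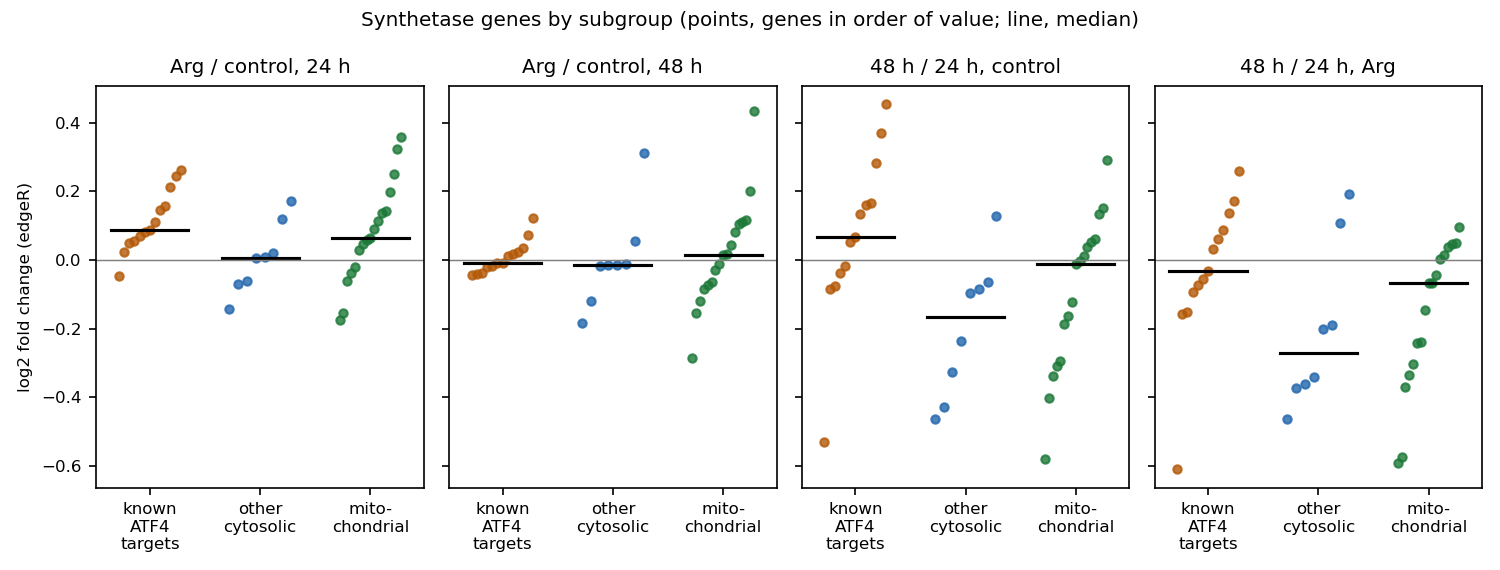
Log2 fold changes of the 13 cytosolic synthetase genes known as ATF4 targets, the 8 other cytosolic genes and the 17 mitochondrial genes in each comparison, with genes as points in order of value and the median as a line. The other cytosolic genes have medians of -0.17 and -0.27 for 48 h against 24 h without and with Arg, against 0.067 and -0.031 (0.025 with library totals alone as the scaling) for the known ATF4 targets.

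At 24 h, 2 members rose with Arg at an adjusted p under 0.05 (edgeR, 14279 genes tested), EPRS among them, and 0 fell. That is 5.26% of the members against 2.79% of all genes called higher, while 3.84% of all genes were called lower. At an unadjusted p under 0.05, 6 members (15.8%) were higher and 0 lower, against 10.8% and 11.9% of all genes. DESeq2 called 3 higher, with IARS added, and 0 lower (of all genes, 3.36% and 4.64%). The median log2 fold change was 0.070 over the cytosolic members, 17 of 21 with a positive value, and 0.063 over the mitochondrial members, 12 of 17 positive, beside 0.0030 for all genes. The known ATF4 targets had a positive value in 12 of 13 and a median of 0.089, and the other cytosolic members in 5 of 8 and a median of 0.0074.

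EPRS stood at 263, 291 and 278 CPM in the control libraries and 333, 333 and 334 CPM in the Arg-treated libraries at 24 h, where the 3 libraries lay within an SD of 0.659. The groups did not overlap, and EPRS rose by a log2 fold change of 0.26 ± 0.073 (edgeR adjusted p = 0.0388). The call depended on single libraries. Without library A or C of the control or library C of the Arg-treated group EPRS did not pass, at adjusted p values of 0.190, 0.137 and 0.149 (edgeR). It did not pass without library B of the Arg-treated group either (edgeR adjusted p = 0.120). In these 4 fits 0.859% to 1.03% of all genes were called higher. Without library B of the control or library A of the Arg-treated group 4 members passed, with EPRS and AARS2 among them in both. In these fits 4.42% and 3.29% of all genes were called higher.

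The share of counts on the mitochondrial chromosome was 1.20% to 1.30% in the 24 h control libraries and 0.624% to 0.802% in the 24 h Arg-treated ones. With the genes of that chromosome left out, the same 2 members passed, with a log2 fold change of 0.26 for EPRS. The summed keratinocyte markers, mostly KRT5 and KRT14, were 33687 to 39012 CPM in control and 38464 to 45834 CPM with Arg. Their part in the result was not tested.

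At 48 h, 0 members passed in either direction (edgeR, 14562 genes tested), where 0% of all genes were called higher and 0.117% lower. At an unadjusted p under 0.05 edgeR gave 1 member higher (2.63%, RARS2) and 2 lower (5.26%, DARS and VARS2), against 5.94% and 7.49% of all genes, and DESeq2 called 0 at an adjusted p under 0.05. DARS stood at 182, 175 and 196 CPM in control and 163, 164 and 161 CPM with Arg, with no overlap and a log2 fold change of -0.18 ± 0.064 (edgeR adjusted p = 0.243). VARS2 stood at 35.5, 28.7 and 40.3 CPM and 30.5, 26.0 and 29.3 CPM, with overlap and a log2 fold change of -0.28 ± 0.12 (edgeR adjusted p = 0.342). The lowest of the 3 control values of both genes was that of library B. Without that library DARS, VARS2 and RARS2 passed, with log2 fold changes of -0.22, -0.40 and 0.30 and adjusted p values of 0.0126, 0.00565 and 0.0115 (edgeR), and 1152 genes of the whole table were then called higher and 1213 lower.

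The next members in order of p at 48 h were TARSL2 and IARS. TARSL2 stood at 8.81, 8.20 and 8.04 CPM in control and 10.2, 11.3 and 9.67 CPM with Arg, with no overlap, a log2 fold change of 0.31 ± 0.15 and an adjusted p of 0.379 (edgeR). IARS, the isoleucyl enzyme, stood at 302, 320.1 and 304 CPM and 315, 346 and 349 CPM, with overlap and a log2 fold change of 0.12 ± 0.062 (edgeR adjusted p = 0.419). The medians over the cytosolic and mitochondrial members were -0.011 and 0.015, beside 0.0018 for all genes.

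**Figure D5:**
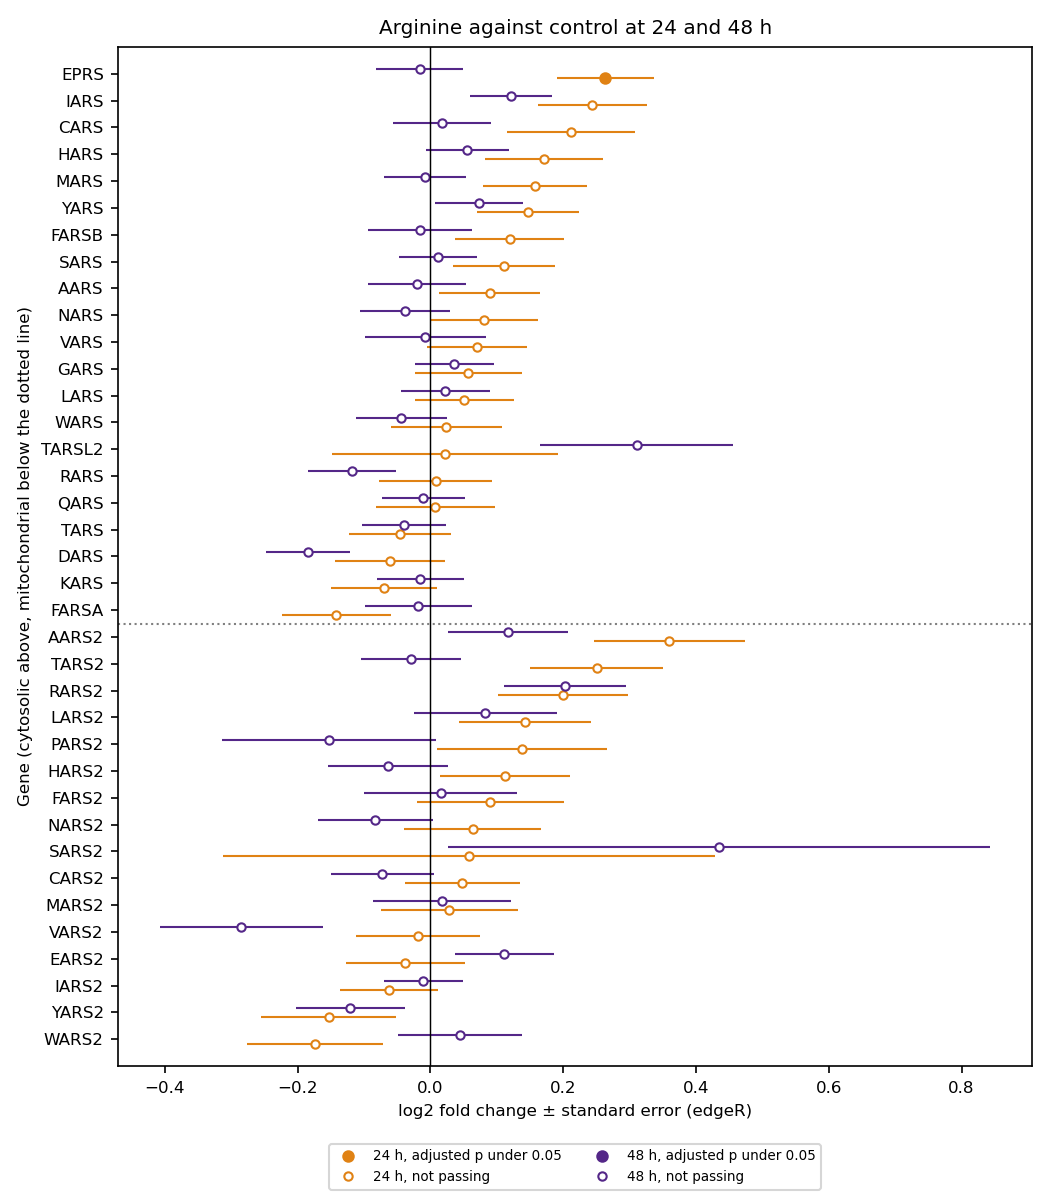
Log2 fold change ± standard error of Arg against control for the named synthetase genes at 24 h (orange) and 48 h (purple), with filled points for an adjusted p under 0.05 in edgeR. EPRS (0.26) at 24 h has the filled point, and at 48 h there are 0.

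Whether the Arg effect differed between the times was tested as an interaction over all 12 libraries (edgeR, 15148 genes tested). In it 0 members passed, where 0.0132% of all genes had a higher effect at 48 h and 0% a lower one. At an unadjusted p under 0.05, 0 members were higher and 2 lower (5.26%, EPRS and TARS2), against 3.06% and 3.8% of all genes, and DESeq2 gave 0 at an adjusted p under 0.05. Without library B of the 48 h control 0 members passed, where 0.181% of all genes were called higher and 0.116% lower (28 and 18 genes). In that fit 0 members were higher and 4 lower at an unadjusted p under 0.05. The share of all genes at this unadjusted threshold is not given for that fit, so the 4 are not read as a trait of the members. For EPRS the Arg effect at 48 h minus that at 24 h was -0.28 ± 0.10 on the log2 scale (edgeR adjusted p = 0.606). This value, the EPRS rise with Arg at 24 h and its rise with time in control share the 24 h control libraries and are not separate observations. For TARS2, the mitochondrial threonyl enzyme, the difference was -0.28 ± 0.13 (edgeR adjusted p = 0.708). TARS2 stood at 55.6, 51.3 and 52.4 CPM in the 24 h control, 55.2, 71.3 and 63.3 CPM in the 24 h Arg-treated group, 56.0, 53.4 and 54.1 CPM in the 48 h control and 56.5, 52.2 and 51.8 CPM in the 48 h Arg-treated group, and its groups overlapped at both times. VARS2, CARS, MARS and RARS had differences of -0.26, -0.19, -0.16 and -0.12, and RARS2 of 0.0049 ± 0.14. The difference was negative in 17 of the 21 cytosolic and 11 of the 17 mitochondrial members, with medians of -0.098 and -0.074 beside -0.0057 for all genes.

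The partners of the synthetases were described from a list of 15 genes, of which 13 were tested. From 24 to 48 h in control 2 fell, AIMP2, a scaffold of the multisynthetase complex (log2 fold change -0.54 ± 0.11, edgeR adjusted p = 0.00846), and DTD1, which removes D-amino acids from tRNA (-0.43 ± 0.11, edgeR adjusted p = 0.0194), and 0 rose. Without library A of the 24 h control 0 fell, without library C of that group 1 fell, and without library B of the 48 h control 3 fell. In these fits 2.74%, 3.36% and 8.6% of all genes fell. With Arg, AIMP2 (-0.39), DTD1 (-0.49) and MTFMT, the formyltransferase of the mitochondrial initiator tRNA (-0.46), fell and PTRH2, a peptidyl-tRNA hydrolase, rose (0.27). Of the 6 fits that left out a library, 1 called a gene of the list higher, that without library C of the 24 h Arg-treated group. The list medians were -0.14 in control and -0.19 with Arg. Over all genes, 10% were called lower and 9.9% higher in control, and 14% and 14.3% with Arg. Between Arg and control 0 of the 13 passed in edgeR at either time, and DESeq2 also called 0. At an unadjusted p under 0.05, 2 were lower at 24 h (PTRH2 at -0.32 and QRSL1, of the mitochondrial glutamine route, at -0.18) and 3 at 48 h (EEF1E1 at -0.44, QRSL1 at -0.20 and MTFMT at -0.30), and 0 were higher. The shares of all genes lower at that threshold were 11.9% at 24 h and 7.49% at 48 h. Without library B of the 24 h control 1 passed as lower at 24 h, and without library B of the 48 h control 1 passed as lower at 48 h. In these 2 fits 6.02% and 8.17% of all genes were called lower.

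Other known ATF4 targets, 26 genes for amino acid supply and stress with ATF4 itself counted among them, were set beside the synthetases. At 24 h 5 of them rose with Arg in edgeR, ALDH1L2 (log2 fold change 0.79), PCK2 (0.76), STC2 (0.62), SLC7A11 (0.57) and ATF5 (0.38), and 1 fell, ATF3 (-1.39), with a median of 0.17. Over all genes, 2.79% were called higher and 3.84% lower. ALDH1L2 and PCK2 are mitochondrial enzymes, SLC7A11 is the cystine carrier and ATF3 and ATF5 are transcription factors. At 48 h 0 passed in edgeR and 1 in DESeq2, with 3 higher and 4 lower at an unadjusted p under 0.05 (edgeR) and a median of -0.030, and without library B of the 48 h control 4 passed as higher and 4 as lower. The shares of all genes were 5.94% higher and 7.49% lower at an unadjusted p under 0.05. Without that library 7.76% of all genes passed as higher and 8.17% as lower. From 24 to 48 h in control 7 rose, led by NUPR1 (2.21) and ALDH1L2 (1.10), and 3 fell, ATF3 (-0.93), ATF5 (-0.51) and SLC7A5 (-0.30), with a median of 0.23. In this comparison 9.9% of all genes rose and 10% fell. Without library A or library C of the 24 h control 5 rose and 1 fell, and without library B of the 48 h control 9 rose and 2 fell. In these fits 2.85%, 3.34% and 7.81% of all genes rose and 2.74%, 3.36% and 8.6% fell. With Arg 6 rose and 6 fell, with a median of -0.0082, where 14.3% of all genes rose and 14% fell. The comparisons at 24 h and in control share the 24 h control libraries.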

How the data were processed

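The authors deposited raw counts per gene for 12 poly(A) RNA-seq libraries. Per the submitters' processing notes, reads went through fastp, STAR and featureCounts with GRCh38 (hg38). The versions, the annotation release and the strand setting of the counting were not given in the sources used here. How reads from genes that overlap on opposite strands were counted is therefore not known, and their counts may be affected. Of the members, 14 overlap another gene with at least 50 counts, and 14 pseudogene entries of the family held at most 1 count each. The authors' tables of normalized values and of differential expression were not used.

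The groups followed the labels (4 groups of 3 libraries). Each 2-group comparison was fitted on its own 6 libraries with edgeR 4.0.16 in R 4.3.3 (filterByExpr with a minimum count of 10, TMM, quasi-likelihood F test), and p-values were adjusted by Benjamini-Hochberg over all genes tested. The difference of the Arg effects was fitted on all 12 libraries. A gene was called at an adjusted p under 0.05. Levels are CPM after TMM over the 12 libraries, divided by the deposited gene length where genes are compared. Depth limits SARS2 and TARSL2 most.

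Values in every library are given for RARS and RARS2 and, in each comparison, for up to 6 called members per direction with the smallest p, or for the 3 with the smallest p in each compartment where none was called. The highest and lowest members per kilobase are also given. For the interaction, MARS and CARS are given by their difference only. In other lists up to 6 called genes with the largest change are named. The values of 1 member are not reported here. It is left out of the plots that name genes and kept in counts, sums and medians over the members. The members and lists were chosen with earlier results of these data known.

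Same-letter libraries had correlations of their deviations from the group means of -0.115 to 0.225 and were not treated as pairs. Alternatives were DESeq2 1.42.0, its size factors, library totals, other count filters, a replicate block, leaving out genes of the mitochondrial chromosome, 1 model for all libraries, and leaving out each library. The fitting was tested on simulated data. Promoter windows came from RefSeq (GRCh38.p14) and transcripts from GENCODE v44, which may differ from the annotation used for counting.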

Additional observations from a re-analysis of the deposited data

How the results depend on the processing

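Apart from the fits that left out a library, stability was counted only for the members chosen by the rule given above. Their values kept direction and side of the threshold in 23 of 24 settings and values for Arg at 24 h and all 48 at 48 h. They did so in all 88 for time in control, all 72 with Arg and 48 of 49 for the interaction. Members outside that choice were not counted, and some changed sides. With library totals alone, DARS and EARS2 were not called in control. HARS with Arg and VARS2 in control changed sides in the settings given above. With library totals alone as the scaling, 5 members were higher at 48 h in control and 3 with Arg, and the RARS2 difference of Arg effects was -0.00080. With a replicate block, EPRS at 24 h had a log2 fold change of 0.26 and an adjusted p of 0.0507 (edgeR). The block gave 2 members higher for Arg at 24 h (AARS2 among them, EPRS not), 0 at 48 h, 4 higher and 9 lower for time in control, 1 and 9 with Arg and 0 in the interaction. With the block 2.65% of all genes were higher for Arg at 24 h. For time it called 13.6% higher and 14.4% lower of all genes in control, and 13.4% and 12.9% with Arg. The library letters share only a letter, and not every library correlated best with its own. Leaving out 1 library gave 0 to 4 members higher for Arg at 24 h, 0 to 1 higher and 0 to 2 lower at 48 h, 2 to 4 higher and 3 to 9 lower for time in control, and 0 to 2 higher and 8 to 11 lower with Arg. In these fits 0.859% to 4.42% of all genes were higher for Arg at 24 h. At 48 h 0% to 7.76% were higher and 0.0336% to 8.17% lower. For time the shares were 2.85% to 10.7% higher and 2.74% to 11.6% lower in control. With Arg they were 10.4% to 12.4% and 9.31% to 12.9%. The smallest counts came without library A of the 24 h control (3 lower at 48 h in control, where 2.74% of all genes were lower). RARS ranged from -0.091 to 0.062 for Arg at 24 h, and RARS2 from -0.084 to 0.090 for time in control, -0.024 to 0.065 with Arg and -0.079 to 0.099 in the interaction. Of all genes, Arg at 48 h gave 0 higher and 17 lower in edgeR, 42 and 127 in DESeq2, 199 and 374 with no count filter and 43 and 141 with the block, and the interaction 2 and 0 in edgeR, 9 and 12 in DESeq2 and 51 and 37 with no count filter. The cause of these differences was not tested.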

Other observations

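WARS, the tryptophanyl enzyme that interferon-gamma is known to induce, stood at 162, 156 and 169 CPM in the 24 h control libraries, 177, 169 and 149 CPM with Arg at 24 h, 159, 141 and 158 CPM in the 48 h control and 142, 149 and 154 CPM with Arg at 48 h. The groups overlapped in all comparisons, and WARS passed in none of the 5 edgeR tests. From 24 to 48 h with Arg its log2 fold change was -0.15 ± 0.074 (edgeR adjusted p = 0.139). In that comparison WARS passed without library C of the 24 h Arg-treated group. Of 8 other genes that interferon-gamma is known to induce, 6 were tested from 24 to 48 h in control and 3 rose, the guanylate-binding proteins GBP1 (log2 fold change 0.94 ± 0.17, edgeR adjusted p = 0.00495) and GBP2 (2.56 ± 0.52, edgeR adjusted p = 0.00745) and the immunoproteasome subunit PSMB9 (0.56 ± 0.16, edgeR adjusted p = 0.0329). Without library A of the 24 h control 1 of the list rose, and without library B of the 48 h control 3 did. The share of all genes that rose was 9.9% with all libraries, and 2.85% and 7.81% in these 2 fits. GBP2 rested on 120 counts in the 12 libraries. With Arg 5 were tested and 1 rose, GBP1 (0.69 ± 0.16, edgeR adjusted p = 0.00263), where 14.3% of all genes rose. Between Arg and control, 0 of this list passed in edgeR at 24 h or at 48 h, with 0 and 3 lower at an unadjusted p under 0.05 and 0 and 1 lower in DESeq2. Without library B of the 48 h control 2 were called lower at 48 h (edgeR). In that fit 8.17% of all genes were called lower, and 7.49% were lower at an unadjusted p under 0.05 with all libraries.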
